A study of Mus musculus with 74 samples.

Results

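Microglia, the resident macrophages of the brain, keep their identity through a small set of transcription factors. Here such factors and an inducible one, 9 members in all, are described across both sorted cell fractions of a demyelination experiment. The members were taken by gene symbol from the deposited table of 49912 genes: Sall1, Mef2a, Mef2c, Irf8, Spi1, Maf, Runx1 and Bhlhe41, called identity factors below, and Bhlhe40, an inducible factor. All 9 passed the filter on low counts in both fractions, where 14087 genes (microglia) and 16915 genes (nonmicroglia) were tested.

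Spi1 encodes PU.1, the factor that commits cells to the myeloid lineage, and Irf8 encodes a partner that binds DNA together with it. Runx1 acts early in blood and myeloid development, and the MEF2 factors and MAF take part in the expression of mature microglia and macrophage genes. Sall1 encodes a zinc finger protein that, among brain macrophages, is a hallmark of microglia and represses the genes of activated states. Bhlhe40 and Bhlhe41 encode related repressors that bind the E-box and belong to the feedback arm of the circadian clock, and Bhlhe40 is known to be induced by stimulation, hypoxia and lipid-laden states of macrophages.

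The mice were wild type, heterozygous or homozygous knockout for Trem2, a microglial receptor for lipids and debris, and were fed control chow or chow with 0.2% cuprizone, a copper chelator that kills oligodendrocytes, for 5 or 12 weeks. From each brain, viable Cd11b-positive cells (the microglia fraction) and all remaining viable cells (the nonmicroglia fraction) were sorted. Sequencing of tags from the 3' end of transcripts yielded 74 libraries from 37 animals. Within each fraction every combination of genotype, diet and week had 3 animals, except for heterozygotes at 12 weeks (4 on either diet) and wild-type controls at that time (2). Each group held 1 male. The sources used here do not give the knockout allele, the background strain or the ages. The animals are the replicates, and both fractions of an animal come from the same brain.

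The table gives counts per gene, which are shown here as CPM, the count scaled to a common library total, and levels are compared between libraries and not between genes. Library totals ran from 1043961 to 3945694 in microglia and from 1255465 to 3441041 in the nonmicroglia fraction. Differences are log2 fold changes ± standard error from edgeR, with the number of animals in each group as given above, and "called" means a Benjamini-Hochberg adjusted p under 0.05 over all genes tested. Trem2 itself stood at 109 to 250.4 CPM in the knockout microglia libraries and at 418 to 989 CPM in wild type, with no overlap, although 3' tags check a deletion only where it removes the 3' end. Along the first principal component, 4 microglia libraries (wild-type control 9145 and heterozygous control 7674 at 12 weeks, knockout control 945 at 5 weeks and knockout cuprizone 981 at 12 weeks, by animal number) stood apart from the rest, as did 2 nonmicroglia libraries. For several of the results that rest on them, values without them are also given. The labels hold RNA integrity numbers for only part of the libraries, and these were not used in the fits.

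All 12 microglia markers were detected in the sorted microglia, with Cx3cr1, the fractalkine receptor, at a mean of 13445 CPM. In the nonmicroglia fraction these markers stood at 1.27 to 22.3% of their microglia level (median 1.49%), and the highest share belonged to Sparc, which is also made by other brain cells. Neutrophil markers (8 of 8 detected) summed to 103 to 8055 CPM over the microglia libraries and border macrophage markers (8 of 8) to 259 to 1715 CPM, so that the gate also held RNA of other myeloid cells. Of the 7 lymphocyte markers, 1 was above 1 CPM there. In a bulk library, fewer cells of a type and less RNA per cell cannot be told apart.

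Promoter sequences from RefSeq (GRCm38.p6) were matched for 6 of the 9 members, all but Spi1, Maf and Bhlhe40. Sall1 and Bhlhe41 are shown because Sall1 was the identity factor that was lower in both weeks of cuprizone, and because Bhlhe41 is the close relative of Bhlhe40 with the E-box CACGTG, the letters that both proteins bind, in front of its start. The stretches lie directly upstream of the annotated genes and read 5′ to 3′ on the minus strand. Sall1 is shown over 250 bases at chr8:89044163-89044412 and Bhlhe41 over 112 bases at chr6:145865559-145865670, and capitals mark the E-box.
Sall1: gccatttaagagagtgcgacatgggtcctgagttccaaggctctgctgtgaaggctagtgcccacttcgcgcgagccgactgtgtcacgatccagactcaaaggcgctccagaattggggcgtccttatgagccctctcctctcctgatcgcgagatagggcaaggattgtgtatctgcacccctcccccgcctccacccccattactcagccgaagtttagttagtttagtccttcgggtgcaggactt
Bhlhe41: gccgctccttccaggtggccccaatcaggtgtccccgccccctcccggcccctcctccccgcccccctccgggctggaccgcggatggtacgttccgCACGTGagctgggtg
The E-box was found in the listed window of Bhlhe41 and in 1 of the 2 windows of Runx1, and in 6.02% of all 32851 promoter windows of 250 bases searched on both strands. The letters searched for PU.1 (GAGGAAGT), an IRF site (by name), RUNX (TGTGGTT), MAF (TGCTGAC) and MEF2 (by name) occurred in none of the 12 windows of the 6 members, against 2.44%, 2.98%, 4.4%, 3.81% and 2.92% of all windows. These matches describe letters and not bound sites. On GRCm38 the genes lie on chromosome 8 (Sall1, 89027235 to 89044162; Irf8, 120736358 to 120756694; Maf, 115682942 to 115707794), chromosome 7 (Mef2a, 67231163 to 67372858), chromosome 13 (Mef2c, 83504034 to 83667080), chromosome 2 (Spi1, 91082390 to 91115756), chromosome 16 (Runx1, 92601466 to 92826149) and chromosome 6 (Bhlhe41, 145858243 to 145865558; Bhlhe40, 108660629 to 108666925). None shares exon bases with another gene on its own strand. Bhlhe40 shares 118 exon bases with the antisense gene 0610040F04Rik, which held 9 counts over the microglia libraries against 1362 for Bhlhe40. Other members also share exon bases with a gene on the other strand. These are Bhlhe41 with Gm43909 (1280 bases, 54 counts against 21655) and Maf with Gm15655 (440 bases, 68 against 196734). Mef2a shares 302 bases with the protein-coding Lysmd4 (659 counts against 36783) and Runx1 106 bases with Gm26626 (0 against 8345).

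The 8 identity factors were far higher in the microglia fraction, and Bhlhe40 was the 1 member that was higher in the nonmicroglia fraction of control animals. In wild type on control chow (5 animals, both fractions), all 9 members were called, beside 29.4% of the 18408 genes tested across fractions. The median over all genes was -0.24 in this comparison and -0.47 with DESeq2 size factors, and all 9 members kept their direction and their call with both. Spi1 stood at 217 ± 24.3 CPM (SD, n = 5) in microglia and 2.41 ± 1.43 in the nonmicroglia fraction, a difference of 6.68 ± 0.41 (adjusted p = 4.68e-27). Irf8 differed by 6.40 ± 0.40 in these animals (adjusted p = 5.7e-24), and over all 37 animals it stood at 734 ± 147 against 16.4 ± 8.71 CPM (SD). These were the 2 largest differences among the 9. In the nonmicroglia fraction the 2 genes lay at 1.11% and 1.37% of their microglia level in these animals.

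Runx1 (4.66 ± 0.69), Sall1 (4.25 ± 0.26), Maf (4.18 ± 0.22), Mef2c (3.58 ± 0.26) and Mef2a (3.35 ± 0.27) followed, with adjusted p from 9.81e-32 to 1.49e-07. Their nonmicroglia levels came to 4.54 to 11.3% of the microglia level in the same animals. Bhlhe41 had the smallest difference among the identity factors, with 283 ± 104 against 71.4 ± 29.4 CPM and a log2 difference of 2.06 ± 0.33 (adjusted p = 1.57e-07). Over all 37 animals the 7 identity factors other than Bhlhe41 were higher in microglia in every animal, and Bhlhe41 in 36. Differences between the fractions were common, with 51.7% of all genes called over the mean of all groups.

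Bhlhe40 stood at 8.76 ± 6.92 CPM in wild-type control microglia and at 36.7 ± 18.6 in the nonmicroglia fraction (SD, n = 5 each). It was lower in microglia in 5 of 5 animals, by -1.86 ± 0.62 (adjusted p = 0.0149). Without animal 9145, the single animal left in its group then being taken to vary like the others, the difference was -1.52 (microglia library left out, adjusted p = 0.126) or -1.33 (nonmicroglia library left out, adjusted p = 0.159). Over the mean of all 12 groups, where 51.7% of genes were called, it was -1.95 ± 0.23 (adjusted p = 5.48e-13), and microglia held more Bhlhe40 than the nonmicroglia fraction in 9 of 37 animals.

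**Figure D1:**
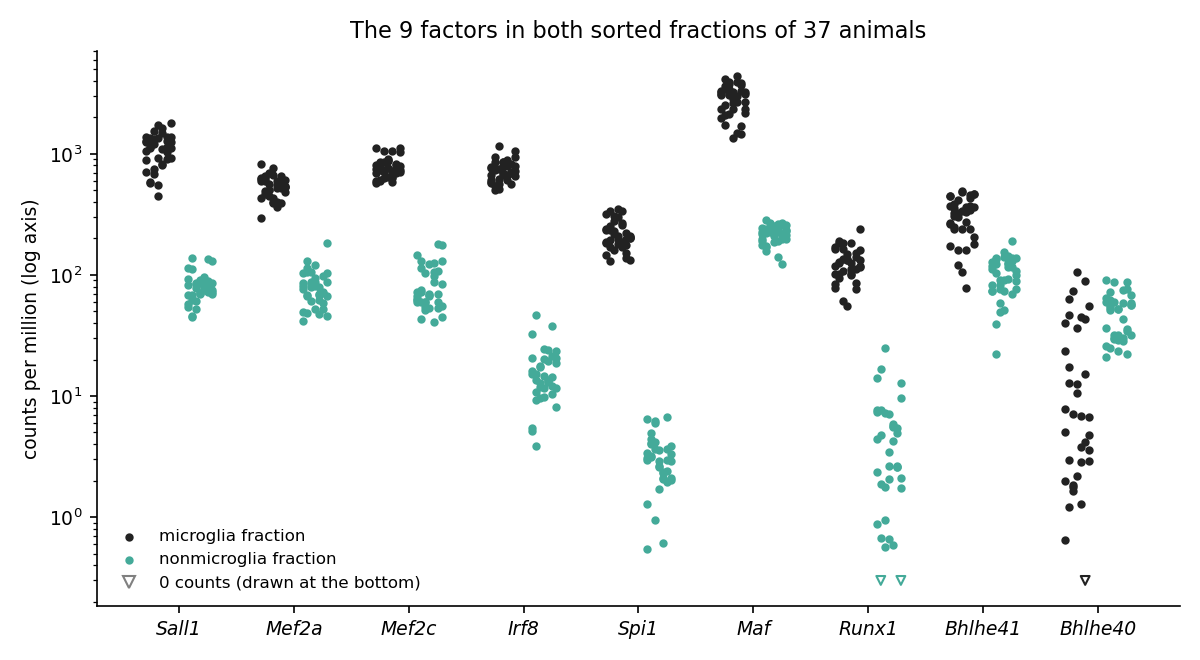
CPM of each factor (log axis) in the microglia and nonmicroglia libraries of the 37 animals, 1 point per library, with libraries at 0 counts drawn as open triangles at the bottom. Of the identity factors, 7 do not overlap between the fractions and Bhlhe41 overlaps in part (77.6 to 491 against 22.3 to 190.02 CPM), whereas Bhlhe40 in microglia spreads from 0 to 105 CPM across the nonmicroglia values of 21.1 to 90.3 CPM. Over the mean of all groups 51.7% of all genes were called between the fractions, and the share without overlap was not computed.

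In microglia, Bhlhe40 was low on control chow in all 3 genotypes, and its highest levels were in wild type and heterozygotes on cuprizone. The 12-week controls held 15.1 and 4.79 CPM in wild type, 7.80, 1.22, 1.85 and 10.7 CPM in the heterozygous group, and 1.99, 12.9 and 7.07 CPM in the knockout group. On cuprizone at 12 weeks the 3 wild-type libraries held 105, 44.5 and 89.7 CPM, and the 4 heterozygous libraries 23.5, 46.7, 73.9 and 36.7 CPM. The 3 knockout libraries on cuprizone held 2.93, 0.647 and 2.96 CPM, from 4, 1 and 5 counts. All 7 wild-type and heterozygous animals on cuprizone were thus above all 9 control animals, and all 3 knockouts on cuprizone lay among or below the controls.

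At 5 weeks Bhlhe40 on cuprizone stood at 55.6, 40.3 and 63.2 CPM in wild type, with 2.85, 43.2 and 6.73 CPM for heterozygotes and 1.77, 12.5 and 1.28 CPM for knockouts. The 9 control libraries of that week lay between 0 and 17.2 CPM (median 3.76). The wild-type libraries did not overlap their controls, 2 of 3 heterozygotes lay above theirs (1108 far above), and the knockouts overlapped theirs.

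The rise within heterozygotes at 12 weeks, 3.20 ± 0.89, was called (adjusted p = 0.0321, higher in 4 of 4 animals), beside 2.55% of all genes in that comparison. It lost its call when any of 5 of the 8 libraries was left out: controls 7674, 943 and 944 (adjusted p = 0.127, 0.0523 and 0.11) and cuprizone 2476 and 6296 (0.0548 and 0.108). Without the libraries apart on the first component it was 2.90 (adjusted p = 0.0977). In wild type the difference was 3.05 ± 1.19 at 12 weeks (adjusted p = 0.287) and 2.79 ± 0.99 at 5 weeks (adjusted p = 0.514), and neither was called, although all 3 cuprizone animals lay above all controls each time. In heterozygotes at 5 weeks it was 2.71 ± 1.03 (adjusted p = 0.491).

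In knockouts the diet difference of Bhlhe40 was 0.20 ± 0.98 at 5 weeks (adjusted p = 1) and -1.80 ± 1.05 at 12 weeks (adjusted p = 0.718). Bhlhe40 held 0 to 32 counts per control library, and its standard errors were wider than those of Sall1. Averaged over the 3 genotypes, Bhlhe40 differed by 1.90 ± 0.57 at 5 weeks (adjusted p = 0.079) and 1.49 ± 0.60 at 12 weeks (adjusted p = 0.195). The value at 5 weeks was called with the DESeq2 Wald test (adjusted p = 0.0295), with no count filter (0.0429) and without knockout cuprizone 8485 (0.0471) or wild-type control 1930 (0.0346).

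The genotypes were compared directly on cuprizone at 12 weeks. Bhlhe40 was lower in knockouts than in wild type by -5.26 ± 1.14 (adjusted p = 0.0107), with no overlap between 3 and 3 animals. It was the single member called, beside 0.44% of all genes. The call rested on the knockout libraries: without 1748 or 981 the differences were -4.85 and -5.50 with adjusted p = 0.0927 and 0.0649. Against heterozygotes, where 1.05% of genes were called, the knockouts were lower by -4.48 ± 1.09 (adjusted p = 0.0238), again with no overlap. That call was lost with limma voom (adjusted p = 0.0764), without the libraries apart on the first component (0.0847) and without any of 5 single libraries (heterozygotes 2476 and 6296, knockouts 1748, 9542 and 981; adjusted p = 0.0515, 0.0574, 0.105, 0.0553 and 0.124).

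At 5 weeks on cuprizone, knockouts differed from wild type by -3.40 ± 1.01 (adjusted p = 0.519), with no overlap. On control chow at 12 weeks the difference was -0.41 ± 1.08 (adjusted p = 0.987). The test of whether the diet response itself differed between knockout and wild type gave -4.85 ± 1.57 at 12 weeks (adjusted p = 0.229) and did not pass, where 0.0284% of genes were called. Heterozygotes differed from wild type on cuprizone at 12 weeks by -0.78 ± 0.86 (adjusted p = 0.87), with overlapping values. Marker sums of other cell types moved along with these genotypes at 12 weeks on cuprizone, and their part in the result was not tested. Border macrophage markers (2 of 8 called in the diet comparison at 12 weeks) summed to 795 to 1205 CPM in knockouts, 406 to 580 in wild type and 259 to 620 in heterozygotes. Neutrophil markers (0 of 8 in that diet comparison) summed to 589 to 6432, 664 to 1090 and 103 to 315 CPM, and endothelial markers (1 of 7, Flt1) to 97.7 to 280.4, 322 to 506 and 203 to 415 CPM. Of these markers, knockouts differed from heterozygotes by edgeR in Mrc1 (1.42 ± 0.37, adjusted p = 0.0361) and Cd163 (1.29 ± 0.35, 0.0481). They also differed in the neutrophil marker Retnlg (6.58 ± 1.57, 0.0368) and in Flt1 (-1.97 ± 0.46, 0.0207). From wild type they differed in Mrc1 (1.85 ± 0.40, 0.0125) and Flt1 (-2.71 ± 0.49, 0.00113). All markers of these lists were above 1 CPM in the mean of the microglia fraction.

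**Figure D2:**
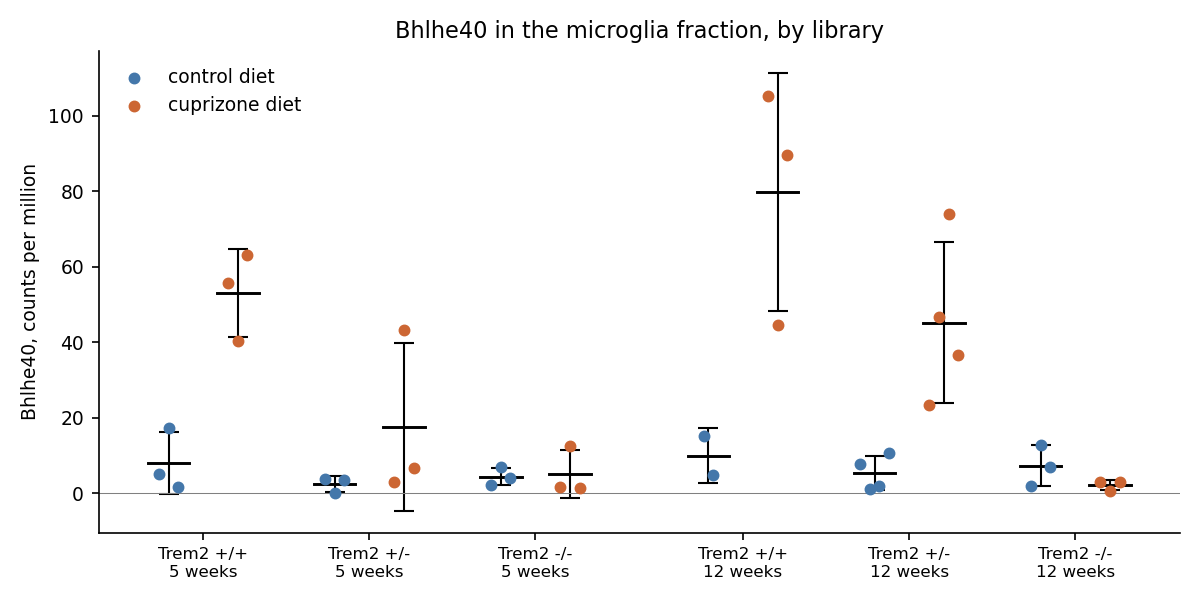
Bhlhe40 CPM in each microglia library by genotype, week and diet, with bars for the mean ± SD. On cuprizone at 12 weeks the wild-type and heterozygous libraries lie between 23.5 and 105 CPM and the knockout libraries between 0.647 and 2.96 CPM.

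The genes whose levels followed Bhlhe40 most closely over the 37 microglia libraries (Pearson's r of log2 CPM among 7119 genes, given as a description, since the libraries share diet and genotype) were Fabp5 (0.85), Dkk2 (0.84), Cspg4 (0.84), Fn1 (0.83), Lpl (0.82) and Ank (0.81). Spearman's rank correlations of these genes, in the same order, were 0.76, 0.66, 0.75, 0.81, 0.70 and 0.73. Fabp5 encodes a fatty acid carrier and Lpl lipoprotein lipase, and both are genes of the disease-associated microglia state. Fn1 stands on the monocyte list and Cspg4 on that of oligodendrocyte precursors. Of the 6 precursor markers, 3 were above 1 CPM in the mean of the microglia fraction, and Pdgfra, C1ql1 and Gpr17 were under it. The precursor list, Cspg4 included, summed to 6.45 to 40.2 CPM in controls and 19.5 to 81.9 CPM on cuprizone at 12 weeks. The part of precursor RNA in the level of Cspg4 was not tested. Dkk2 had a difference of -7.82 ± 1.58 between knockout and wild type on cuprizone at 12 weeks (adjusted p = 0.0044), Lpl differed by -4.83 ± 0.52 (adjusted p = 1.19e-06) and Ank by -2.52 ± 0.49 (adjusted p = 0.0042). Fabp5 (-4.50 ± 1.24, adjusted p = 0.117), Fn1 (-3.82 ± 1.17, 0.198) and Cspg4 (-4.33 ± 1.58, 0.338) were not called in that comparison.

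Sall1 fell on cuprizone in both weeks. Averaged over genotypes it fell by 0.55 ± 0.13 on the log2 scale at 5 weeks (adjusted p = 0.0119) and by 0.71 ± 0.13 at 12 weeks (adjusted p = 0.000288). At 5 weeks the 9 control libraries held 1116 to 1639.9 CPM (median 1269) and the 9 cuprizone libraries 583 to 1114 (median 899), with no overlap. At 12 weeks, 9 controls held 1243 to 1786 CPM (median 1342) and 10 cuprizone libraries 451 to 1372 (median 757). Sall1 was the only identity factor called at 5 weeks, where 1.6% of genes were called, and with Maf 1 of 2 at 12 weeks (2.95%). The call at 5 weeks was lost without wild-type cuprizone 9144 (-0.49, adjusted p = 0.0531). At 12 weeks it held without each of the 19 libraries, with log2 differences from -0.80 to -0.59.

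Within genotypes, the fall of Sall1 at 12 weeks was called in heterozygotes, whose 4 cuprizone libraries held 714, 571, 684 and 451 CPM against 1372, 1342, 1540.0 and 1723 CPM in their controls. The difference was -1.15 ± 0.20 (adjusted p = 0.000142), with no overlap. In wild type the libraries held 555, 800.3 and 1031 CPM on cuprizone and 1279 and 1786 on control chow, and the difference of -0.84 ± 0.25 was not called (adjusted p = 0.112), though it was with the DESeq2 Wald test (0.00703). In knockouts the libraries held 1372, 1051 and 1142 CPM on cuprizone and 1243, 1277 and 1325 on control chow. Their difference was -0.13 ± 0.23 (adjusted p = 0.948), with overlapping values. At 5 weeks the wild-type difference was -0.55 ± 0.23, the heterozygous -0.48 ± 0.23 and the knockout -0.62 ± 0.23, none called alone (adjusted p = 0.667, 0.601 and 0.72) and none overlapping.

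Between genotypes on cuprizone at 12 weeks, Sall1 was higher in knockouts than in heterozygotes by 0.82 ± 0.21 (adjusted p = 0.0368), with no overlap. The call was lost with no sex term (adjusted p = 0.0584), without the libraries apart on the first component (0.65, adjusted p = 0.31) and in 6 of the 7 single omissions (heterozygotes 1040, 2476, 6296 and 9469, knockouts 1748 and 981, with adjusted p from 0.0503 to 0.285). Against wild type the difference of 0.49 ± 0.23 was not called (adjusted p = 0.472). The difference of the diet responses, knockout minus wild type, was 0.70 ± 0.34 (adjusted p = 0.459).

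Maf fell on cuprizone at 12 weeks by 0.62 ± 0.13 on the log2 scale, averaged over genotypes (adjusted p = 0.00152), and the call held in each of 19 omissions. The 9 controls held 2681 to 4149.5 CPM (median 3300.5) and the 10 cuprizone libraries 1358 to 3209 (median 2106). In wild type the 3 cuprizone libraries held 1358, 1497 and 1453 CPM and the 2 controls 3815 and 2681 CPM. That difference, -1.02 ± 0.25 (adjusted p = 0.0321), was the single member call where 0.958% of genes were called. It was lost when any of the 5 libraries was left out (adjusted p from 0.056 to 0.356) and without control 9145, the library of these that lay apart on the first component (-1.24, adjusted p = 0.0798, with the other such libraries also left out).

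In heterozygotes Maf on cuprizone stood at 1984, 2091, 2121 and 2617 CPM, below all 4 controls (3038 to 3430.15 CPM), a difference of -0.38 ± 0.20 (adjusted p = 0.397). In knockouts it stood at 2183, 3209 and 2533 CPM, below all 3 controls (3300.5 to 4149.5 CPM), a difference of -0.47 ± 0.23 (adjusted p = 0.666). At 5 weeks the averaged difference was -0.32 ± 0.13 (adjusted p = 0.282, and 0.0449 with limma voom). Knockouts differed from wild type on cuprizone by 0.74 ± 0.23 at 5 weeks (adjusted p = 0.584) and 0.79 ± 0.23 at 12 weeks (adjusted p = 0.114). Neither value overlapped between the groups, and the second was called with the DESeq2 Wald test (adjusted p = 0.0143) and with no count filter (0.0239).

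**Figure D3:**
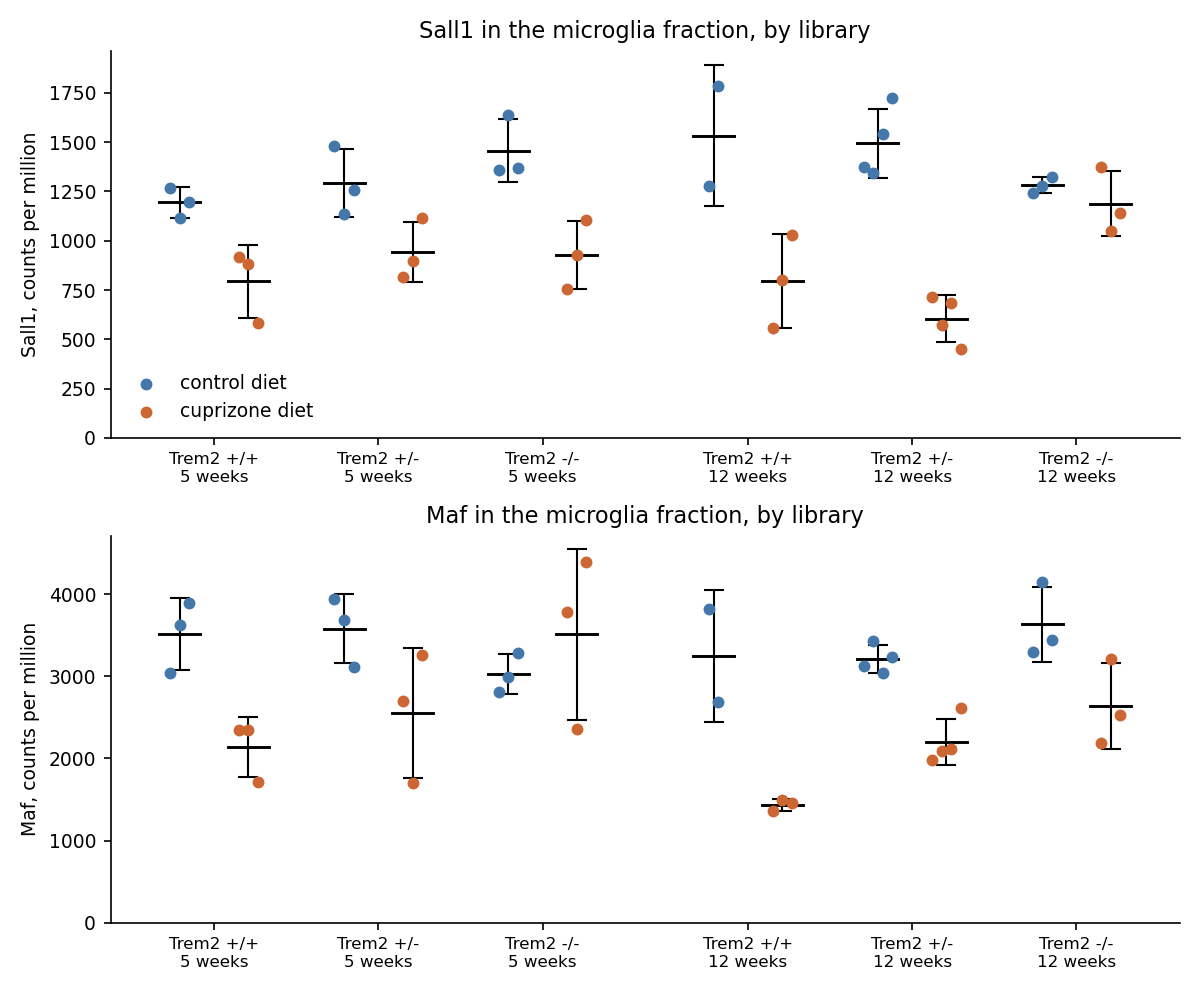
Sall1 and Maf CPM in each microglia library by genotype, week and diet, with bars for the mean ± SD. Sall1 of heterozygotes at 12 weeks lies between 451 and 714 CPM on cuprizone and between 1342 and 1723 CPM on control chow, and Maf of wild type at 12 weeks between 1358 and 1497 CPM on cuprizone.

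Marker sums moved together with Sall1 and Maf. The microglia markers (5 of 12 called lower at 12 weeks, none higher) summed to 38477 to 46917 CPM in controls (median 42170.1) and 28219.7 to 42917 on cuprizone (median 33724). The border macrophage markers (2 of 8 called lower, Mrc1 and Stab1, none higher) summed to 519 to 1345 CPM in controls (median 966) and 259 to 1205 on cuprizone (median 550.3), with no marker at 0 in the mean. The call of Stab1 was lost in 13 of 19 single omissions (adjusted p from 0.0536 to 0.245) and without the libraries apart (0.368), and that of Mrc1 without the libraries apart (0.0563). The share of counts from mitochondrial genes was 1.49 to 3.27% in controls and 1.72 to 4.56% on cuprizone. On cuprizone it was 4.05 to 4.56% in heterozygotes, 1.72 to 2.56% in wild type and 1.85 to 3.17% in knockouts, so that it moved with the difference of Sall1 between knockouts and heterozygotes. The part of these measures in the result was not tested. Over the 37 libraries the genes most like Sall1 were Sox4 (r = 0.88), Slc2a5 (0.86) and Adgrg1 (0.84), of which Slc2a5 encodes the fructose transporter of homeostatic microglia. Those most like Maf were P2ry12 (0.90), the purinergic receptor of resting microglia, Selplg (0.83) and Lrba (0.81).

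The lineage factors Spi1, Irf8 and Runx1, with Mef2c and Bhlhe41, were not called for diet. At 12 weeks, averaged over genotypes, Irf8 differed by -0.06 ± 0.14 (interval -0.34 to 0.22), Spi1 by 0.10 ± 0.17 (-0.23 to 0.43), Runx1 by 0.02 ± 0.21 (-0.39 to 0.42), Mef2c by -0.22 ± 0.13 (-0.47 to 0.03) and Bhlhe41 by 0.12 ± 0.25 (-0.38 to 0.61), where the interval is at 95%. None was called (adjusted p from 0.439 to 1), nor were they at 5 weeks, with differences from -0.30 (Runx1) to 0.28 (Bhlhe41). Irf8 libraries held 619.96 to 1153 CPM on control chow and 539 to 949 on cuprizone at 12 weeks. Spi1 held 169 to 277 against 175 to 339 CPM, so that both overlapped widely.

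Mef2a lay between these and the factors that fell. It held 491 to 825 CPM (median 601) in 9 controls and 297 to 600.5 CPM (median 435) in 10 cuprizone libraries at 12 weeks, 8 of which were below all controls. The difference of -0.42 ± 0.14 was not called (adjusted p = 0.075) but was with the DESeq2 Wald test (0.00592) and limma voom (0.0184). Within genotypes the wild-type difference was -0.38 ± 0.26, the heterozygous -0.39 ± 0.21 and the knockout -0.50 ± 0.24 (adjusted p = 0.61, 0.4 and 0.659), with no overlap in any of the 3. At 5 weeks it was -0.06 ± 0.14 (adjusted p = 1).

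Spi1 differed between genotypes on cuprizone without overlap in several groups, but no such difference passed the test. At 5 weeks it held 134, 145 and 130.4 CPM in wild type and 161, 299.8 and 338 CPM in knockouts, a difference of 0.96 ± 0.29 (adjusted p = 0.53). At 12 weeks heterozygotes differed from wild type by 0.74 ± 0.27 (adjusted p = 0.403), with no overlap. In heterozygotes at 12 weeks it differed with diet by 0.54 ± 0.25 (adjusted p = 0.316). Bhlhe41, unlike Bhlhe40, held 240.1 and 181 CPM in wild-type controls and 479.6, 275 and 372 CPM on cuprizone at 12 weeks, a difference of 1.02 ± 0.50 that did not pass (adjusted p = 0.458). Its 37 microglia libraries ran from 77.6 to 491 CPM, and the 4 libraries apart on the first component held 107, 120.2, 181 and 206 CPM, below the median of 326. The closest genes to Bhlhe41 were Pfn1 (r = 0.87), Slc25a5 (0.84) and Snhg8 (0.84), and those closest to Spi1 were Csf1r (0.72), the receptor for the growth factor on which microglia survive, Pmp22 (0.63) and Gnai2 (0.62). Mef2c was most like Mertk (0.77), Ash1l and Wnk1, Mef2a most like Rtn4rl1 (0.80), Irf8 most like Tbc1d5 (0.66), Hif1an and Zpr1, and Runx1 most like Gm43499 (0.60), Adck1 and Atg2a. For Bhlhe41, Spearman's rank correlation was lower, at 0.55 with Pfn1, 0.76 with Slc25a5 and 0.71 with Snhg8.

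**Figure D4:**
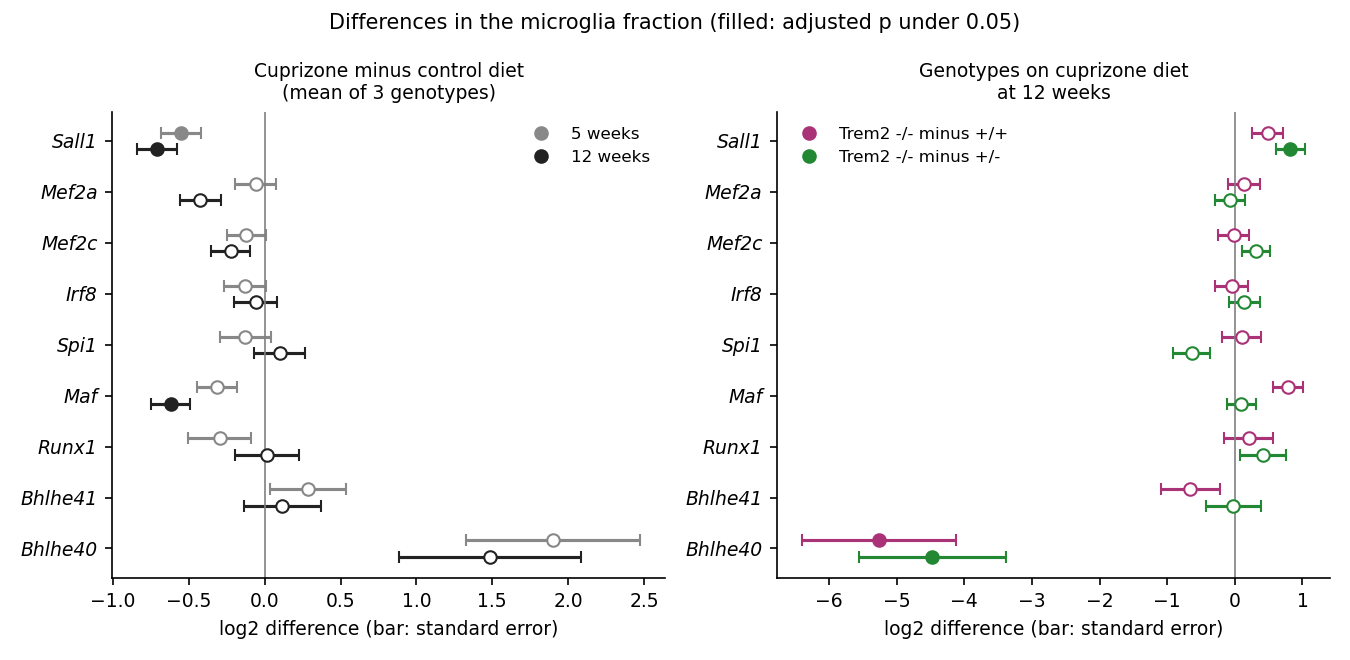
Log2 differences of the 9 factors in microglia with standard errors, for cuprizone minus control averaged over genotypes (left) and for knockouts minus wild type or heterozygotes on cuprizone at 12 weeks (right), filled where the adjusted p is under 0.05. On the left, Sall1 is filled below 0 in both weeks and Maf at 12 weeks only. On the right, Bhlhe40 is filled at -5.26 and -4.48, and Sall1 at 0.82 against heterozygotes.

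The responses of the identity factors and of Bhlhe40 may be set side by side within each genotype. In heterozygotes at 12 weeks the 8 identity factors ranged from -1.15 (Sall1) to 0.54 (Spi1) and Bhlhe40 stood at 3.20. In wild type at 12 weeks they ranged from -1.02 (Maf) to 1.02 (Bhlhe41) beside 3.05 for Bhlhe40. In knockouts they ranged from -0.50 (Mef2a) to 0.29 (Runx1) beside -1.80, and no member was called, where 0.0284% of genes were. No member was called within a genotype at 5 weeks (where 0.142% of genes were called for wild type, 0.277% for heterozygotes and 0.0568% for knockouts). By unadjusted p under 0.05, edgeR had 4, 3 and 1 members at 5 weeks and 2 in knockouts at 12 weeks. Of the 14087 genes, 961, 1148, 945 and 1048 passed that threshold in these comparisons. Knockouts and wild type differed in no member on control chow at 5 weeks (0.0071% of genes called) or 12 weeks (0.0213%) or on cuprizone at 5 weeks (0.0781%), and knockouts and heterozygotes in none on cuprizone at 5 weeks (0.0639%), by edgeR, DESeq2 or limma voom. By unadjusted p under 0.05, edgeR had 0, 0, 3 and 1 members there, beside 610, 972, 724 and 790 of the 14087 genes. Heterozygotes differed from wild type in no member by edgeR, DESeq2 or limma voom. Up to 2 members had an unadjusted p under 0.05 in a setting (edgeR), beside 600 to 1204 of the 14087 genes. Of all genes, 0.121% were called there on cuprizone at 12 weeks and 0% in the other 3 settings. The diet response at 12 minus 5 weeks was called for no member by any of the 3 tools (0.0071% of all genes called by edgeR). None had an unadjusted p under 0.05 in edgeR either, where 777 of the 14087 genes did.

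In the nonmicroglia fraction, the identity factors stood at 1.44% (Spi1) to 32.7% (Bhlhe41) of their microglia level over the 37 animals. No member was called for diet there at 5 weeks (0.443% of genes called) or 12 weeks (0.497%) by edgeR, DESeq2 or limma voom. In edgeR, 0 and 1 members passed an unadjusted p under 0.05, beside 1283 and 1423 of the 16915 genes. The 1 was Bhlhe41, with 92.1 ± 24.9 CPM (SD, n = 9) in controls and 127 ± 34.3 (n = 10) on cuprizone at 12 weeks and a difference of 0.53 ± 0.23 (adjusted p = 0.446). Bhlhe40 stood at 54.8 ± 20.6 CPM in controls and 53.0 ± 25.1 on cuprizone at 12 weeks, a difference of -0.05 ± 0.30 (adjusted p = 1), and Sall1 differed by -0.02 ± 0.23 (adjusted p = 1). Within genotypes no member of that fraction was called either, by these 3 tools. None passed an unadjusted p under 0.05 in edgeR, where 488 to 1505 of the 16915 genes did. Of all genes, 0.0414% (wild type), 0.0591% (heterozygotes) and 0.0296% (knockouts) were called at 5 weeks and 0.0828%, 0.142% and 0.0355% at 12 weeks. Mef2c was lower at 12 than at 5 weeks on cuprizone (40.5 to 75.4 CPM, n = 10, against 67.0 to 179.8, n = 9), with a difference of -0.88 ± 0.23 (adjusted p = 0.0319) that was the single member call where 0.964% of genes were called. On control chow the same difference was -0.73 ± 0.24 (adjusted p = 0.185). The call on cuprizone was lost with no count filter (adjusted p = 0.0594) and in 10 of 19 omissions, those of heterozygotes 2476 and 1108, knockouts 1748, 981, 310 and 8485 and wild types 1746, 3917, 743 and 9144 (adjusted p from 0.061 to 0.112). The neuron markers (8 of 8 above 1 CPM in this fraction) summed on cuprizone to 416 to 1596 CPM at 12 weeks (median 797) and 1021 to 6979.85 CPM at 5 weeks (median 2527). On control chow they summed to 421 to 1612 CPM at 12 weeks (median 855) and 1499.7 to 4681 CPM at 5 weeks (median 2233). Their part in the result was not tested. Animals of the 2 weeks may differ in age, which cannot be told apart from the time on diet.

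Whether the diet response differed between the fractions was tested in 1 fit over all 74 libraries, averaged over genotypes and weeks, where 2.05% of genes were called. For Bhlhe40 the response was larger in microglia by 1.92 ± 0.45 (adjusted p = 0.00563). The response of Sall1 was more negative in microglia, with a difference of -0.59 ± 0.16 between the responses (adjusted p = 0.0338), a call that was lost with the animal as a replicate block (-0.61, adjusted p = 0.0508), with DESeq2 size factors (-0.53, 0.071) and with limma voom (-0.54, 0.335). Mef2a (-0.59 ± 0.18, adjusted p = 0.061) and Maf (-0.35 ± 0.14, adjusted p = 0.243) were not called. In wild type on cuprizone (6 animals, 34.8% of genes called) the identity factors kept their difference between fractions, from 2.31 ± 0.29 (Bhlhe41) to 5.90 ± 0.34 (Spi1), all 8 called. Bhlhe40 there stood at 0.79 ± 0.52 (adjusted p = 0.251, interval -0.23 to 1.80), with overlapping values and the higher level in microglia where controls had the lower.

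Other genes of the same networks were read from lists by function, whose changes in microglia are given at 5 and 12 weeks, averaged over genotypes, beside a median over all genes of -6.5e-05 and 0.0060 and a share of 1.6% and 2.95% of all genes called. Of 18 other myeloid lineage factors, 1 was lower in each week and none higher (list medians -0.21 and -0.13): Cebpa, a partner of PU.1, by -0.70 ± 0.16 at 5 weeks (adjusted p = 0.00734), and Klf2 by -0.79 ± 0.21 at 12 weeks (adjusted p = 0.0178). The Klf2 call was lost with limma voom (adjusted p = 0.0677) and without knockouts 1744 or 1748 or wild types 9145 or 3917 (0.103, 0.0563, 0.105 and 0.0538). Of 21 state and stress factors, 2 were higher and 1 lower at 5 weeks and 1 higher at 12 weeks (medians 0.08 and 0.29). Hif1a, the oxygen-sensing factor, rose by 0.99 ± 0.19 and 1.21 ± 0.20 (adjusted p = 0.0011 and 3.66e-05). Irf7, an interferon response factor, rose by 2.93 ± 0.77 and Atf4, a stress response factor, fell by 0.79 ± 0.18 at 5 weeks (adjusted p = 0.0265 and 0.00616). The Irf7 call was lost in 10 of 18 omissions (adjusted p from 0.0508 to 0.0878) and without the libraries apart (0.053).

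Of 16 immediate early genes, which respond quickly to stimulation and to cell isolation, Jun alone was called. It fell by 0.81 ± 0.13 and 0.71 ± 0.13 on the log2 scale (adjusted p = 3.09e-05 and 0.000146), and the list's summed level was 24188 to 42068 CPM in controls and 18829 to 33651 on cuprizone at 12 weeks, whose part in the results of the members was not tested. Of 13 clock genes tested, none was called at 5 weeks (edgeR) and 1 at 12 weeks (medians 0.10 and -0.02), Hlf, which fell by 2.43 ± 0.61 (adjusted p = 0.0109) and lost its call without wild-type control 9145 (0.0539) or without all libraries apart (-1.85, 0.172). Of 15 hypoxia genes, 0 and 4 were higher and none lower (medians 0.81 and 1.03). At 12 weeks these were Vegfa (2.42 ± 0.62), Bnip3 (1.65 ± 0.45), Aldoa (1.03 ± 0.27) and Egln3. Egln3 held 0 to 0.496 CPM in controls and 0 to 45.4 CPM on cuprizone. The summed level of the hypoxia list overlapped widely between the diets. It was 1533 to 3002 CPM in controls (median 2160) and 1540 to 3093 CPM on cuprizone (median 2064) at 12 weeks. At 5 weeks it was 1707 to 2863 CPM in controls (median 2179) and 1502 to 2709 CPM on cuprizone (median 2196). The calls of Vegfa, Bnip3 and Aldoa were each lost without wild-type control 1932 (adjusted p = 0.0553, 0.0771 and 0.0794) or 9145 (0.158, 0.137 and 0.0751), and in other single omissions for Bnip3 and Aldoa. Of the 12 homeostatic genes, 2 and 6 were lower and none higher (medians -0.18 and -0.41), among them Tmem119 (-1.24 ± 0.15), Slc2a5 (-1.07 ± 0.16), P2ry12 (-0.94 ± 0.15) and Cx3cr1 (-0.62 ± 0.13) at 12 weeks. Of 18 disease-associated genes, 17 were higher and none lower in each week (medians 2.24 and 2.81).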

How the data were processed

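RNA of both sorted fractions of 37 mice was sequenced with a 3' tag method. The authors deposited 1 table of counts per gene, whole numbers that are not normalized. Per the submitters' processing notes FastQC 0.11.5, STAR, MultiQC, R 3.4.3 and GRCm38.p6 were used; the sources used here do not give the counter, the annotation, the strand setting or any use of molecular identifiers, so antisense partners cannot be told apart. Groups came from the labels. Each fraction was fitted with edgeR 4.0.16 (R 4.3.3; TMM, filterByExpr with a minimum count of 10, robust quasi-likelihood, 12 group means and sex), and the fractions together with 24 group means. In each fraction 25 contrasts were tested and 4 between fractions, with Benjamini-Hochberg adjustment over all genes. The scripts were tested on simulated data.

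Alternatives were DESeq2 1.42.0 (Wald test, size factors), limma 3.58.1 voom, no count filter, no sex term, leaving out each library and, between fractions, the animal as a block. Leaving out libraries beyond 30 on the first principal component, and the test of diet by fraction, were added after seeing the data. The members and gene lists were chosen with earlier results of these data known. The genes most like a member were the 3 (6 for Bhlhe40) with the highest Pearson's r, of which not all are reported here. The labels pair the fractions by animal, and the deviations of paired libraries from the group means correlated at -0.0849 to 0.193 (median 0.0188, over 0.1 in 7 of 37 animals). The 80 pairs of libraries of 1 group all differed by more than sampling noise (lowest chi-square per degree of freedom 11.0).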

Additional observations from a re-analysis of the deposited data

Results flagged for a closer look

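The diet response of 2 members differed between the fractions in a test of the difference itself, over all genotypes and weeks. Bhlhe40 responded more in microglia than in the nonmicroglia fraction, by 1.92 on the log2 scale (adjusted p = 0.00563 with edgeR's quasi-likelihood test). Over 6 alternatives the value ran from 1.85 to 2.0 and the adjusted p from 0.000199 to 0.0145. The response of Sall1 was more negative in microglia than in the nonmicroglia fraction, with a difference of -0.59 between the responses (adjusted p = 0.0338), and over its 6 alternatives the adjusted p ran from 0.0234 to 0.335. In the 36 combinations of member and group with 4 libraries, no library stood apart by Dixon's test.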

How the results depend on the processing

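Of 2117 recomputed single values (127 results), 1976 kept direction and side of the threshold, 93 lost the call, 12 gained one and 36 changed sign. Diet calls in microglia at 5 weeks went from 1 to 2 with the DESeq2 Wald test, limma voom or no count filter, and to 0 to 2 leaving out 1 library. Diet calls within genotypes went from 3 to 1 without the libraries apart, to 4 with the DESeq2 Wald test, and to 2 to 3 leaving out 1. Calls of knockout against wild type went from 1 to 2 with DESeq2 or no filter, and to 0 to 1 leaving out 1. Calls of knockout against heterozygote went from 2 to 1 with limma voom or no sex term, to 0 without the libraries apart, and to 0 to 2 leaving out 1. Between fractions in wild-type controls, 8 to 9 members were called leaving out 1 library.

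The sign changed only for values that were not called: Irf8 diet at 12 weeks (0.016 without the libraries apart, -0.10 to 0.010 leaving out 1), Runx1 diet at 12 weeks (-0.12 to 0.20), Maf of knockouts against heterozygotes on cuprizone at 12 weeks (-0.18 to 0.23), Bhlhe40 of knockouts against wild type on control chow at 12 weeks (-1.35 to 0.83), and Bhlhe40 diet in knockouts at 5 weeks (-0.29 with limma voom, -0.19 without the libraries apart, -1.35 to 0.68 leaving out 1). In the nonmicroglia fraction at 12 weeks these were Sall1 (-0.13 to 0.11), Maf (-0.16 to 0.073) and Bhlhe40 (0.00099 with limma voom, 0.013 without the libraries apart, -0.27 to 0.29). The causes were not tested.

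With the replicate block (the animal), all 9 members were called in both fraction comparisons, and the block changed no other call than that of Sall1 between fractions. Leaving out single libraries was not run for the mean of all groups, wild type on cuprizone between fractions, and diet by fraction. Without a wild-type control at 12 weeks, the lone remaining library is assumed to vary like the other groups. Low counts of Bhlhe40 limit what can be detected in controls and knockouts.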
